A study of Homo sapiens with 2 samples.

Results

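The genes described here are 41 members of the NRF2 pathway and of the glutathione, thioredoxin, NADPH and ferritin systems that work beside it, out of 63677 genes in the count table. They were picked by name, with earlier results of these data known, so their ratios are a description and were not tested. All 41 had a row: 40 matched by current symbol, and SOD2 by its name in GENCODE release 29.

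For the comparison, 2 cultures of HGC-27 were used, a line from an undifferentiated human gastric carcinoma. The lncPSCA culture received the plasmid pcDNA3.1-lncPSCA, which carries the long non-coding RNA lncPSCA, and the control culture received the pcDNA3.1 vector without it. Both were transfected with the reagent INTERFERin and collected after 48 hours. Overexpression was thus transient and plasmid-driven, in 1 cell line.

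NRF2, the product of NFE2L2, is a transcription factor that pairs with a small MAF protein at antioxidant response elements. KEAP1 holds it in the cytosol and, with the CUL3 ubiquitin ligase, sends it for degradation until oxidants or electrophiles modify KEAP1. BACH1 occupies the same elements as a repressor. The targets make and recycle glutathione and thioredoxin, supply NADPH, detoxify quinones and carbonyls, and store iron released from haem.

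The lncPSCA library held 23016646 counts over 25900 genes with a read, and the control library held 21552098 over 24792. With 1 library per group, no test was possible and every interval covers counting error only. PSCA, the gene the long non-coding RNA is named after, had 28699 reads in the lncPSCA library and 22 in the control library, and no row is named lncPSCA. Of the gastric markers, TFF1, TFF2, TFF3, GKN1, GKN2 and CLDN18 had 0 reads in either library. MUC5AC (3 and 4 reads), MUC6 (1 and 3), PGC (1 and 0) and SOX2 (4 and 1) had few. GATA4 was at 17.4 and 18.1 CPM in lncPSCA and control, GATA6 at 23.0 and 17.0 CPM and MUC1 at 7.02 and 4.98 CPM. The epithelial genes EPCAM (7 and 7 reads), KRT18 (0 and 4) and KRT19 (0 and 1) were near 0 as well. CDH1, KRT8 and ESRP1 were measured at low levels, and CLDN7, at 6.30 and 3.03 CPM, was higher in lncPSCA by the 2-fold rule given below. The mesenchymal gene vimentin (VIM) stood at 2594 and 2601 CPM and SNAI2 at 63.8 and 60.2 CPM, while CDH2 of the same list had 6 and 4 reads. Of the 13 gastric markers only GATA4, GATA6 and MUC1 were thus measured. The fibroblast-type genes COL1A1 (1042 and 1112 CPM) and DCN (153 and 161 CPM) were abundant, while COL1A2 was at 16.8 and 12.3 CPM. PDGFRB of that list was higher in lncPSCA by the 2-fold rule, at 5.83 and 2.80 CPM. Of the 8 blood and endothelial markers, CD3E, HBB, PECAM1 and CDH5 had 0 reads, and PTPRC (4 and 9 reads), CD79A (3 and 2) and VWF (13 and 5) had few. CD68 alone was measured, at 2.47 CPM in lncPSCA and 1.61 CPM in control. Of 5 measured mesenchymal markers, 3 were higher in lncPSCA by the lesser rule given below, beside 8.36% of all measured genes. The 3 markers were FN1 (61.6 and 26.3 CPM), ZEB1 (39.1 and 21.5 CPM) and ZEB2 (51.3 and 27.0 CPM), and FN1 met the 2-fold rule too. Their part in the results was not tested.

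Promoter sequence can be searched for the letters of the element, though such a search does not show binding. The letters TGACNNNGC, the core of the antioxidant response element, were searched on both strands in RefSeq windows (GRCh38.p14) that run from 250 bases before to 50 bases after each gene's start. Windows were found for 31 members, and 9 of those members held a match: KEAP1, MAFF, GCLM, GPX2, GSTP1, MGST1, TXNRD1, PGD and ME1. Over all 35116 windows the share with a match was 13.3%, and over the members' 45 windows it was 22.2%, or 10 windows. The median GC content was 58.7% over all windows and 69.3% over the members' windows. The part of base composition in these shares was not tested. The core overlaps the AP-1 site TGACTCA, which lies inside the matches of GSTP1 and ME1. These stretches, 5′ to 3′ on the gene's strand with the match in capitals, are shown so that the letters can be seen in genes of different roles.
GCLM: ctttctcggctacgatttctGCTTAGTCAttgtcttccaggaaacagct
TXNRD1: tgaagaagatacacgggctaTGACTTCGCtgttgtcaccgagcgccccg
ME1: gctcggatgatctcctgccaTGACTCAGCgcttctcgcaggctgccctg
GSTP1: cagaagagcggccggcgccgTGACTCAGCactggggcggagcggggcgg
KEAP1: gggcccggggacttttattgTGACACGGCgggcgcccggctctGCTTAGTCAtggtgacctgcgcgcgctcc

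The GCLM stretch lies at chr1:93909436-93909484 on the minus strand, the TXNRD1 stretch at chr12:104215660-104215708 on the plus strand, and the ME1 stretch at chr6:83431160-83431208 on the minus strand. The GSTP1 stretch is chr11:67583726-67583774 (plus strand) and the KEAP1 stretch chr19:10502774-10502845 (minus strand). GCLM and KEAP1 hold the same letters on the opposite strand, beginning 34 and 31 bases before the start. A match is a description and not a bound site. Among measured members, the 8 with a match had -0.31 as their median log2 ratio, and GCLM and TXNRD1, 2 of the 8, were lower by the lesser rule. The 19 with a window and no match had a median of -0.22, with 5 lower and 1 higher. Of all measured genes, 5.8% were lower and 8.36% higher by that rule. MAFK, HMOX1, GSR, GSS, PRDX1, PRDX6, AKR1B10, FTH1, ABCC3 and SOD1 had no window. The split thus covers only 7 of the 13 members lower by the lesser rule, and nothing is read from it. OSGIN1 and NQO1 were among those without these letters in this window.

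The targets HMOX1, OSGIN1, NQO1 and GCLM, the thioredoxin genes TXN, TXNRD1 and PRDX1 and both ferritin genes were less abundant in the lncPSCA library, while the transcript of NRF2 itself was more abundant. A gene was measured when its mean over the libraries reached 1 CPM (counts-per-million, with library sizes scaled by edgeR's TMM method), which 36 of the 41 members did. Of these 36, 30 had a log2 ratio of lncPSCA over control below 0 and 6 above, and their median was -0.33. Over all 15440 measured genes the median was -0.02 and 51.9% lay below 0. Together the 41 members took 0.739% of the lncPSCA counts (95% exact binomial interval 0.735 to 0.742) and 0.935% of the control counts (0.931 to 0.939). Without FTH1, the most abundant member, the shares were 0.562% and 0.690%. In bulk RNA, fewer cells that carry a transcript and less of it per cell cannot be told apart.

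Calls followed 2 rules of size. The 2-fold rule asks for at least a 2-fold ratio on counts plus 1 and a 95% counting interval wholly beyond 1.5-fold, and the lesser, 1.3-fold rule for an interval wholly beyond 1.3-fold. By the 2-fold rule OSGIN1 and HMOX1 were lower, beside 0.596% of all measured genes, and 0 members were higher, beside 3.02%. By the 1.3-fold rule 13 members were lower, beside 5.8% of all measured genes, and NFE2L2 alone was higher, beside 8.36%. These counts rest on the values by which the members were known, and nothing is read from them. Members just inside the 1.3-fold rule were FTL, with an upper bound of the ratio of 0.763, and ABCC3, with 0.737. Just outside it were PRDX6 at 0.802 and SOD1 at 0.809.

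**Figure D1:**
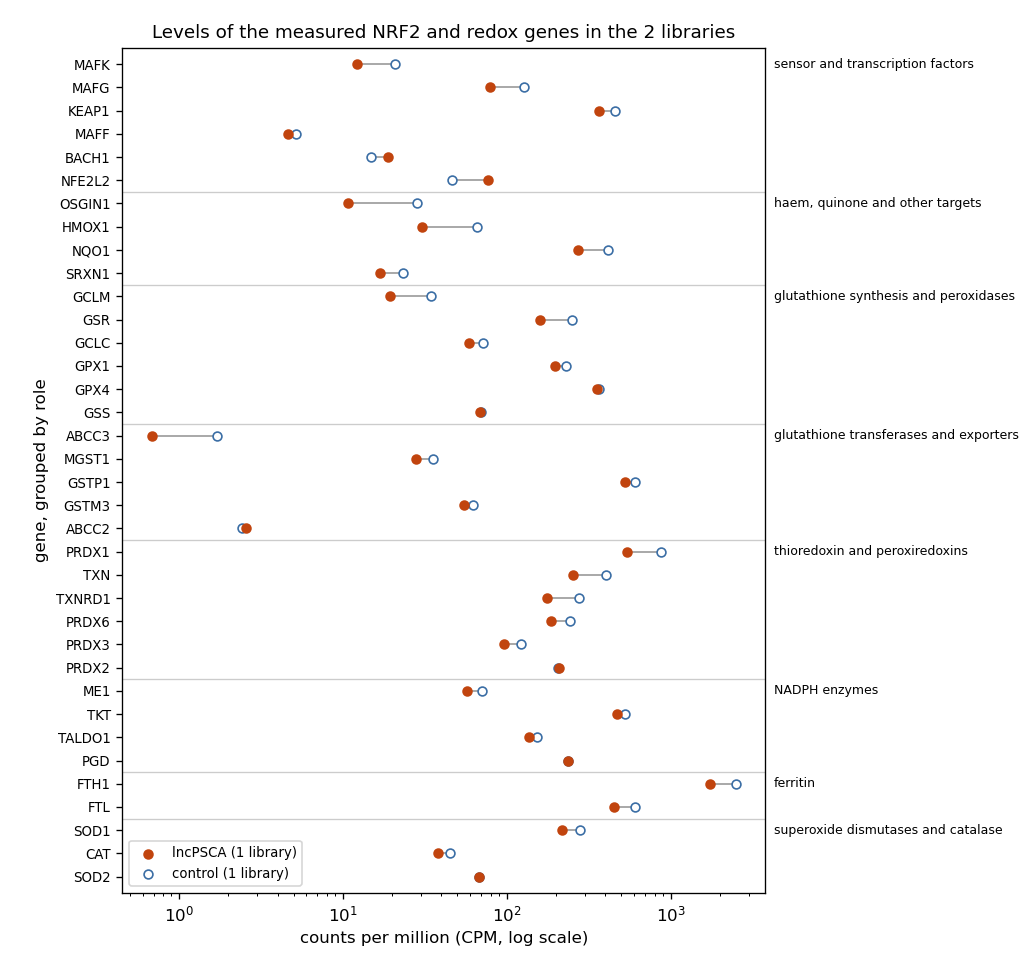
Level of each of the 36 measured members (CPM, log scale) in the lncPSCA library (filled) and the control library (open), grouped by role. Each point is 1 library, with no error bar; filled points lie left of open ones for 30 genes and right of them for 6, most clearly for NFE2L2 (77.4 against 46.2 CPM) and BACH1.

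Among the genes that control NRF2, NFE2L2 was higher in lncPSCA by the lesser rule, MAFG and MAFK were lower, and MAFF met neither rule. NFE2L2 (ENSG00000116044) had 1820 reads in lncPSCA and 975 in control, or 77.4 and 46.2 CPM. It was 1.68-fold higher in lncPSCA (1.55 to 1.81). The genes of the small MAF proteins, which have no activation domain of their own, were lower by the lesser rule in 2 of 3 cases. Of all measured genes, 5.8% were. MAFG was at 78.6 CPM in lncPSCA and 128 CPM in control, 1.62-fold lower (1.53 to 1.72), and MAFK at 12.1 and 20.9 CPM, a ratio of 0.581 (0.499 to 0.676). MAFF had 109 reads in each library and a log2 ratio of -0.15, whose interval spans no difference.

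KEAP1 had 367.9 CPM in lncPSCA and 460.4 CPM in control, a ratio of 0.799 (0.776 to 0.823), and met neither rule. The repressor BACH1 had 18.9 CPM in lncPSCA and 14.9 CPM in control, a ratio of 1.27 (1.10 to 1.47), also short of both. NFE2L2 and BACH1 were the members with the largest ratios above 1. Some exons of these genes are shared with other genes, and the sources do not say whether strand was used in counting. TMEM184A, which covers 18.1% of the MAFK exons from the opposite strand in GENCODE release 29, had 125 reads in lncPSCA and 253 in control. The gene AC019080.1 covers 17.6% of the NFE2L2 exons on the same strand and had 13 reads in lncPSCA and 1 in control. Another non-coding gene, AC079305.1, covers 3.18% of them from the opposite strand and had 146 and 79 reads, a ratio of 1.66 (1.25 to 2.21). How reads over such overlaps were assigned was not tested.

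Of the enzymes and stress genes commonly used as readouts of NRF2, OSGIN1, HMOX1 and NQO1 were lower in lncPSCA by the 1.3-fold rule. OSGIN1, an oxidative stress-induced growth inhibitor, had 251 reads in lncPSCA and 602 in control. At 10.7 and 28.5 CPM it was 2.67-fold lower in lncPSCA (2.30 to 3.11). HMOX1, haem oxygenase 1, opens the haem ring to release iron, carbon monoxide and biliverdin. Its reads were 717 in lncPSCA and 1382 in control, or 30.5 and 65.5 CPM, 2.15-fold lower (1.96 to 2.35). When ratios were centred along transcript length HMOX1 fell short of the 2-fold rule, at a log2 ratio of -0.99.

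NQO1, the quinone reductase, was far more abundant, at 271 CPM in lncPSCA and 416 CPM in control. It was 1.54-fold lower (1.49 to 1.59). The antisense gene AC092115.2 covers 17.7% of the NQO1 exons and had 362 reads in lncPSCA and 646 in control, so its ratio of 0.503 lay on the same side. SRXN1, sulfiredoxin, reactivates over-oxidised peroxiredoxins and had 16.8 and 23.4 CPM, a ratio of 0.719 (0.628 to 0.822) that met neither rule. GENCODE release 29 places another coding gene over 85.0% of its exons on the same strand, with 0 reads in lncPSCA and 4 in control.

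The aldo-keto reductases, which reduce carbonyls and steroids and are strongly NRF2-dependent in many epithelial cells, were close to absent. AKR1B10 had 0 reads in each library, which allows up to 0.128 CPM in lncPSCA and 0.142 CPM in control. AKR1C1 had 9 and 17 reads, AKR1C2 had 0 and 3, and AKR1C3 had 20 and 24, all under the 1 CPM mean. At this depth a difference was not detectable for any of them. The AKR1C genes are also near-copies: 50.8% of the 50-base windows of the longest AKR1C2 transcript occur in AKR1C1 transcripts, so their split of reads is uncertain.

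**Figure D2:**
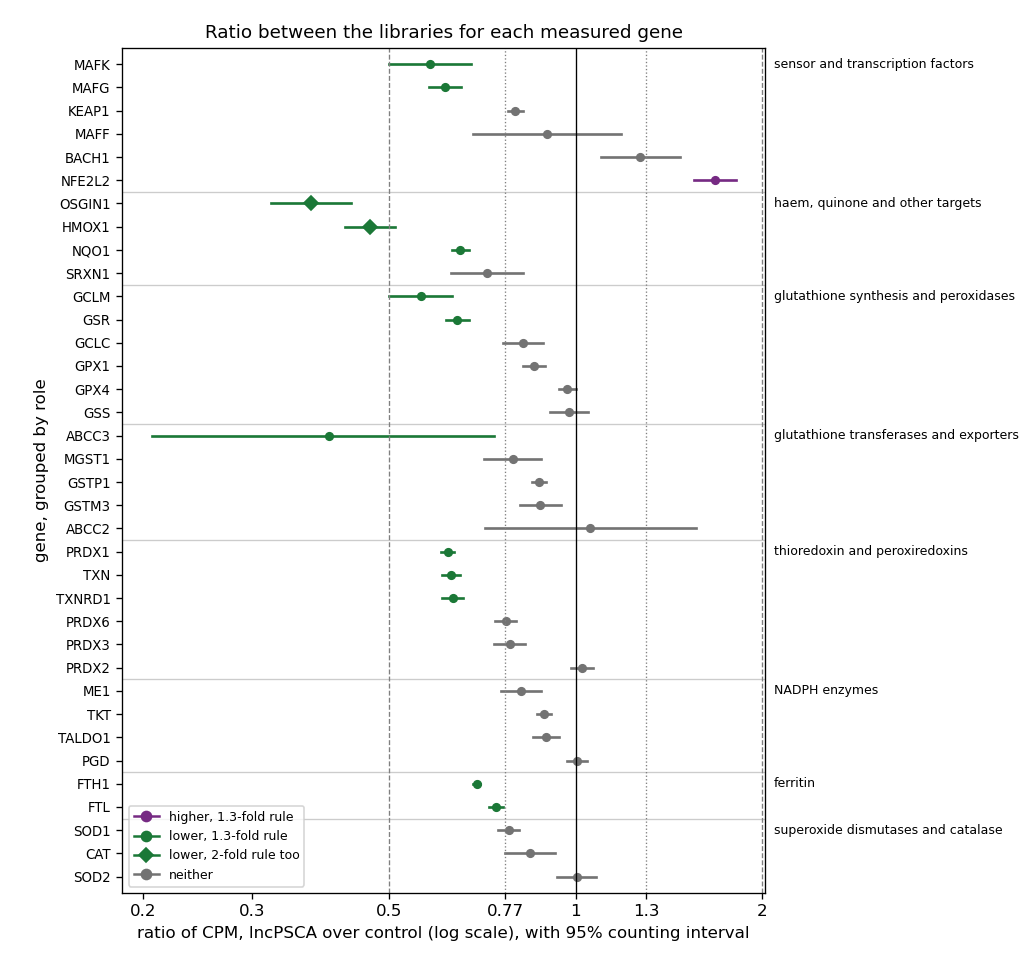
Ratio of CPM in lncPSCA over control for the 36 measured members (log scale), with 95% counting intervals as bars; dotted lines mark 1.3-fold and dashed lines 2-fold. OSGIN1 at 0.374 and HMOX1 at 0.466 are the diamonds, and NFE2L2 at 1.68 is the only interval wholly above 1.3.

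Of the 6 measured members for glutathione synthesis, recycling and peroxidases, GCLM and GSR were lower by the 1.3-fold rule, beside 5.8% of all measured genes. Glutathione genes outside the members are given further below. GCLM, the modifier subunit of glutamate-cysteine ligase, had 457 reads in lncPSCA and 730 in control. It was 1.78-fold lower (1.58 to 2.01), at 19.4 and 34.6 CPM. Its catalytic partner GCLC was at 58.8 and 71.6 CPM, a ratio of 0.821 (0.763 to 0.884), short of both rules. The intervals of the 2 subunits do not overlap. GSS, which adds glycine in the final step of synthesis, had 68.4 CPM in lncPSCA and 70.1 CPM in control, and its log2 ratio of -0.04 changed sign when scaled to total counts and under either centring.

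GSR, the reductase that regenerates glutathione from its disulfide with NADPH, had 3769 reads in lncPSCA and 5253 in control. It was 1.55-fold lower (1.49 to 1.62), at 160.3 and 249 CPM. The selenium-dependent peroxidases showed smaller ratios. GPX1, which reduces hydrogen peroxide, was at 196 and 229 CPM, a ratio of 0.856 (0.822 to 0.891). GPX4, which reduces lipid hydroperoxides and guards against ferroptosis, was at 355 and 367 CPM, and its log2 ratio of -0.05 changed sign under total-count scaling and either centring. GPX2, the gastrointestinal peroxidase, had 2 and 4 reads and was not measured.

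The transferases that attach glutathione to electrophiles differed little. GSTP1 was the most abundant, at 528 CPM in lncPSCA and 605 CPM in control, a ratio of 0.872 (0.851 to 0.894). GSTM3 had a ratio of 0.877 (0.812 to 0.948) and the microsomal MGST1 one of 0.792 (0.712 to 0.880). None of these 3 met a rule. Of the exporters of conjugates, ABCC3 had 16 reads in lncPSCA and 36 in control. It was 2.51-fold lower with a wide interval (1.36 to 4.84), and passed the 1 CPM mean only through the control library (0.681 and 1.71 CPM). Under total-count scaling it met neither rule. ABCC2, with 60 and 51 reads, had a log2 ratio of 0.08 that was below 0 under either centring.

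Of the 6 thioredoxin and peroxiredoxin members, 3 were lower by the 1.3-fold rule, beside 5.8% of all measured genes. Their factors were nearly the same. Thioredoxin genes outside the members are counted further below. TXN, the small disulfide reductase thioredoxin, had 6009 reads in lncPSCA and 8562 in control, 1.59-fold lower (1.54 to 1.64). TXNRD1, the selenoprotein that recharges it with NADPH, had 4120 and 5843 reads, 1.58-fold lower (1.52 to 1.64). PRDX1, a cytosolic peroxidase fed by thioredoxin, had 12704 and 18360 reads, 1.61-fold lower (1.57 to 1.65). The intervals of these 3 genes overlap one another, and the interval of GSR overlaps each of them.

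The other peroxiredoxins among the members stood apart from PRDX1. The mitochondrial PRDX3 had a ratio of 0.782 (0.739 to 0.828) and PRDX6, which also has phospholipase activity, one of 0.770 (0.740 to 0.802), both short of the rules. PRDX2, the closest relative of PRDX1 in the cytosol, was at 209 CPM in lncPSCA and 205 CPM in control, a ratio of 1.02 (0.981 to 1.06). The gene MMACHC covers 24.9% of the PRDX1 exons from the opposite strand and had a ratio of 0.684 (0.632 to 0.740) with 1119 and 1468 reads.

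The NADPH suppliers showed small ratios, and none met a rule. ME1, the cytosolic malic enzyme, had 57.5 CPM in lncPSCA and 70.4 CPM in control, a ratio of 0.817 (0.758 to 0.880). In the pentose phosphate pathway TKT had a ratio of 0.887 (0.864 to 0.911) and TALDO1 one of 0.895 (0.852 to 0.940). PGD, which yields NADPH from 6-phosphogluconate, was at 238 and 237 CPM, with a log2 ratio of 0.01 that changed sign under upper-quartile scaling.

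Both ferritin subunits, which build the shell that stores iron, were lower by the lesser rule. FTH1, the heavy chain with ferroxidase activity, had 40719 reads in lncPSCA and 52774 in control, or 1732 and 2501 CPM. It was 1.44-fold lower (1.43 to 1.46). FTL, the light chain, had 10590 and 12780 reads, 1.34-fold lower (1.31 to 1.38). FTH1 met no rule once ratios were centred along mean expression. FTL met none under either centring, under total-count scaling or with DESeq2 size factors. BEST1, a channel gene known from the retinal pigment epithelium, covers 62.4% of the FTH1 exons on the opposite strand and had 35013 reads in lncPSCA and 44767 in control. Its ratio was 0.702 (0.692 to 0.712). Of the 50-base windows of the longest FTH1 transcript, read on either strand, 78.7% occur in a transcript of another gene. Most of this is the same overlap, as BEST1 holds 62.3% of the windows, while FTH1P10 holds 20.8%. The assignment of FTH1 reads is thus uncertain.

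Of the enzymes for superoxide and hydrogen peroxide, the cytosolic SOD1 had 218 CPM in lncPSCA and 279 CPM in control, a ratio of 0.779 (0.750 to 0.809). Catalase (CAT) had a ratio of 0.843 (0.768 to 0.924). SOD2, the mitochondrial manganese enzyme, which inflammatory signals also induce, was at 67.6 and 67.3 CPM. Its log2 ratio of 0.01 was below 0 under upper-quartile scaling and -0.34 after centring along transcript length, its longest annotated transcript having 14266 bases. None of the 3 met a rule.

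Levels per kilobase of annotated exon place the ferritin genes and PRDX1 at the top of the set in either library. On that scale FTH1 stood at 853 CPM per kilobase in lncPSCA and 1232 in control, FTL at 513 and 690, and PRDX1 at 355 and 572. GSTP1 stood at 276 and 317 and TXN at 224 and 355, so that GSTP1 lay above TXN in lncPSCA and below it in control. NFE2L2 was at 12.9 and 7.73 and HMOX1 at 12.7 and 27.2 CPM per kilobase.

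Over all measured genes, the median ratio was lower among abundant genes. In the top quartile of measured genes by mean CPM, from 59.3 CPM upward, the median log2 ratio of all genes was -0.13 and 9.74% were lower by the 1.3-fold rule. That quartile held 24 of the 36 measured members, with a median of -0.31 and 8 lower. In the quartile below it, all genes had a median of -0.05 and the 5 members there one of -0.34. In the quartile below that, all genes had a median of 0.07 and the 4 members there one of -0.63. The part of abundance in the members' ratios was not tested. Centring along mean expression moved the members' median to -0.23, with 29 of 36 below 0.

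**Figure D3:**
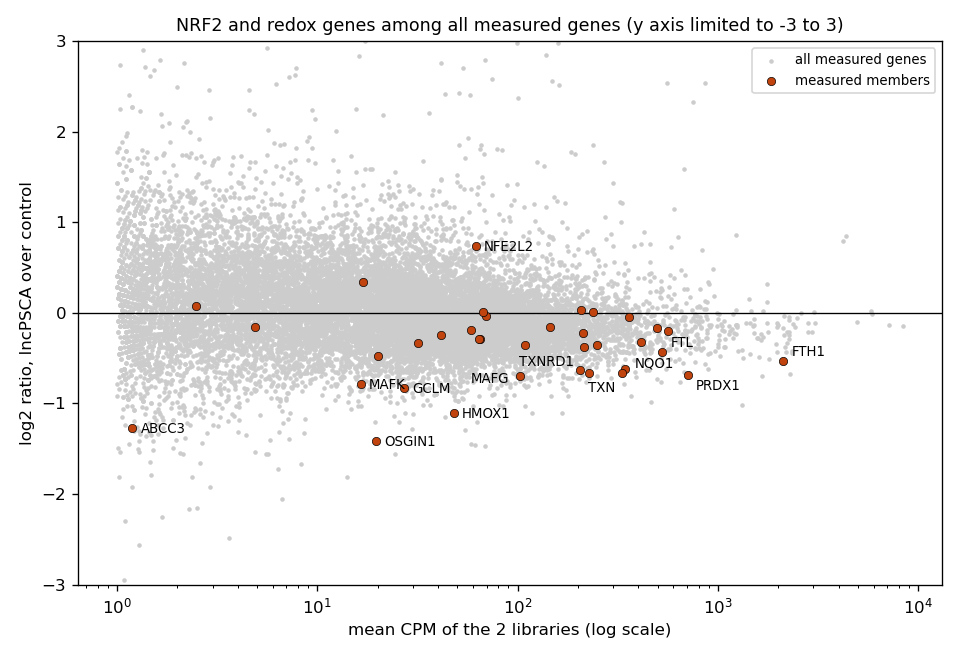
Log2 ratio of lncPSCA over control against mean CPM (log scale) for all 15440 measured genes (grey) and the 36 measured members (orange), with called members labelled except GSR; genes beyond -3 or 3 are not drawn. Members lie mostly below 0, with NFE2L2 at 0.74 above it and OSGIN1 at -1.41 lowest.

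Other genes of the pathway were read from 9 lists with 135 entries, chosen like the members with results of these data known, of which 98 were measured. By the 2-fold rule 4 were higher and 2 lower, beside 3.02% and 0.596% of all measured genes. By the 1.3-fold rule 6 were higher and 13 lower, beside 8.36% and 5.8%. The same shares stand beside the counts of each list below, and nothing is read from those counts. The median log2 ratio of the 98 was -0.13. Centred along mean expression, the counts by the 1.3-fold rule were 8 higher and 7 lower.

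Among 12 other measured regulators, 4 were lower by the 1.3-fold rule and 0 higher, beside 5.8% and 8.36% of all measured genes. TRIM16L and TRIM16 are near-identical in part, so their split of reads is uncertain. TRIM16L was at 71.8 CPM in lncPSCA and 146 CPM in control, 2.04-fold lower (1.92 to 2.16). The remaining 3 were named after their values were seen. TRIM16, a ubiquitin ligase reported to stabilise NRF2, was 1.76-fold lower (1.61 to 1.93). CUL3, the scaffold of the ligase that KEAP1 serves, was 1.97-fold lower (1.80 to 2.15), and SQSTM1, the autophagy receptor p62 that binds KEAP1, 1.49-fold (1.44 to 1.54).

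Of 17 other measured NRF2 targets, 3 were lower and 1 higher by the 1.3-fold rule, beside 5.8% and 8.36% of all measured genes. Their median was -0.20. ALDH3A1, an aldehyde dehydrogenase, had 24.0 CPM in lncPSCA and 48.7 CPM in control, 2.03-fold lower (1.83 to 2.25). SLC7A11, the cystine carrier that feeds glutathione synthesis and is also an ATF4 target, went the other way, at 84.1 and 32.6 CPM, 2.58-fold higher (2.37 to 2.82). ALDH3A1 and TRIM16L lie close to the 2-fold limit, with log2 ratios of -1.02 and -1.03. With total counts, and when centred along mean expression, both fell short of it, and 0 genes of the 9 lists were lower by that rule. Under upper-quartile scaling 3 genes of the lists were, against 2 under the reported scaling.

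Among 15 other measured glutathione genes, 2 were lower and 1 higher by the 1.3-fold rule, beside 5.8% and 8.36% of all measured genes. The higher one was CHAC1, which cleaves glutathione and is induced by ATF4, at 120.1 CPM in lncPSCA and 17.3 CPM in control, 6.94-fold higher (6.22 to 7.76). Of 7 further glutathione transferases none met a rule, and the most abundant, GSTK1, had a ratio of 1.18 (1.09 to 1.29). Of 17 further thioredoxin and redox genes, 2 were lower and 2 higher. SESN2, a sestrin that restrains mTORC1 and promotes KEAP1 removal, was 3.51-fold higher (3.24 to 3.81), at 123 and 35.1 CPM. Of 13 further NADPH genes, 1 was higher, beside 8.36% of all measured genes, and 0 lower, beside 5.8%. Their median was 0.14, and the most abundant, MTHFD1, had a ratio of 1.13 (1.09 to 1.17).

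**Figure D4:**
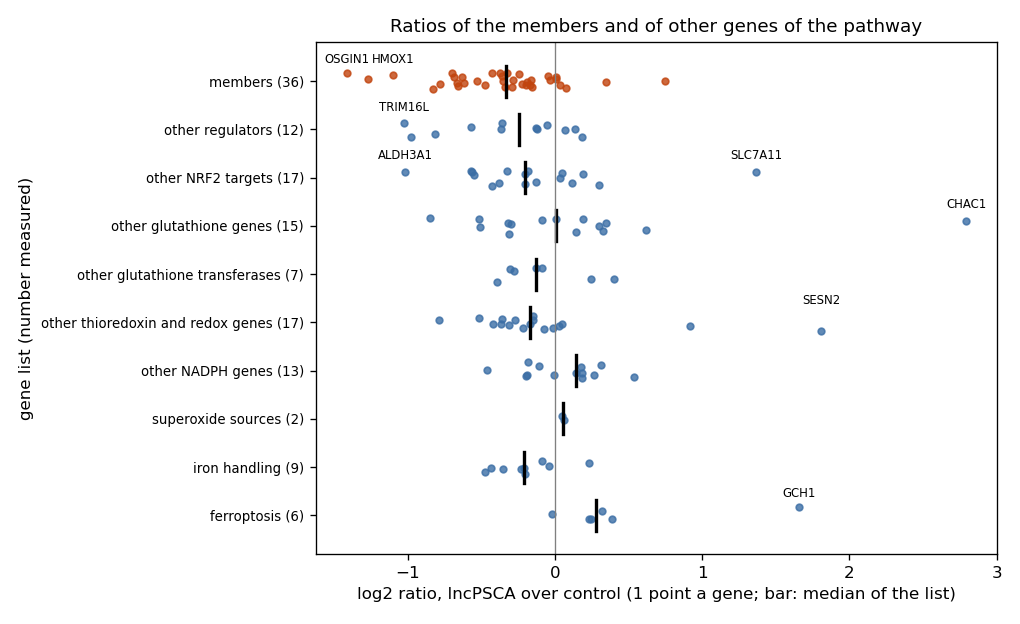
Log2 ratio of lncPSCA over control for each measured gene of the members (orange) and of the 9 other lists (blue), with list medians as bars and genes beyond 1 or -1 named except ABCC3. The members' median of -0.33 is the lowest of the 10, and SLC7A11, CHAC1, SESN2 and GCH1 are the named genes on the right. Members and lists were chosen with results of these data known, and the superoxide list holds only 2 measured genes. Nothing is read from the order of the medians.

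Of the members called by the 1.3-fold rule, all 14 kept the side of 0 on which they lay under each of the 8 alternatives in which they were measured. The rule itself makes this likely, since only a shift of more than 1.3-fold could carry a called ratio across 0. Changing the CPM minimum leaves every ratio as it was. No support is taken from the kept sides. NFE2L2 was the only member higher by that rule under every one of them, and OSGIN1 was lower by the 2-fold rule under every one.

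**Figure D5:**
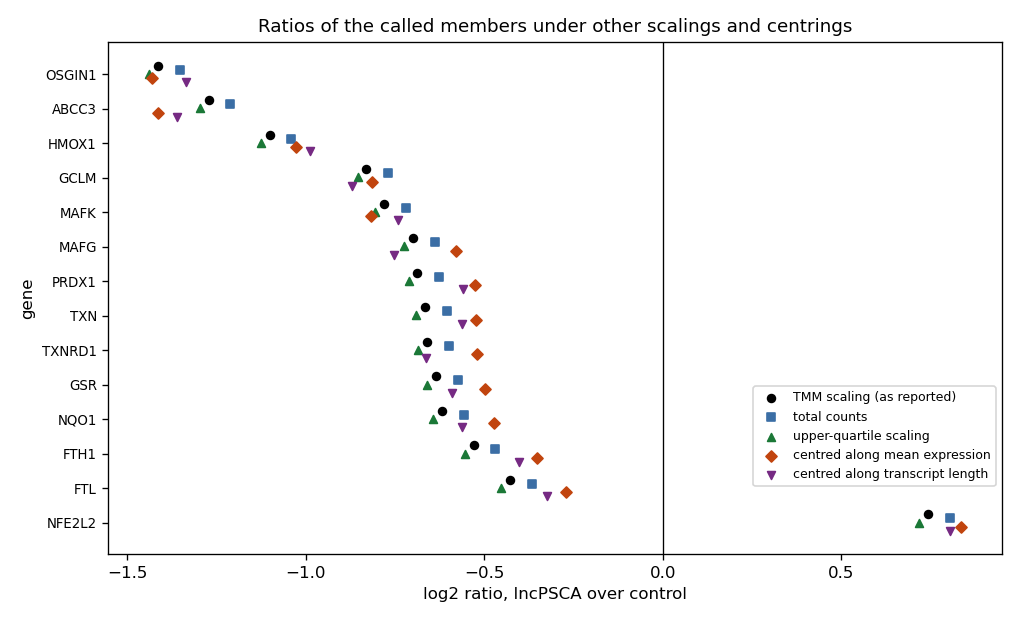
Log2 ratio of lncPSCA over control for the 14 members called by the 1.3-fold rule, under the reported scaling, 2 other scalings and 2 centrings. Centring along mean expression brings the abundant genes PRDX1, TXN, NQO1, FTH1 and FTL closest to 0, FTL to -0.27, and no symbol crosses 0.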

How the data were processed

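RNA of 2 HGC-27 cultures was sequenced, 1 lncPSCA and 1 control, and the authors deposited 1 table of raw read counts per Ensembl gene. Per the submitters' processing notes, the tools were TopHat2 and HTSeq and the build hg19; versions, annotation release, strand setting and treatment of multiply mapped reads were not stated in the labels. The members and all lists were chosen with earlier results of these data known.

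Counts were scaled with edgeR 4.0.16 (TMM factors 1.02 for lncPSCA and 0.979 for control). Log2 ratios used counts plus a pseudocount of 1, which understates ratios at low counts. Folds are CPM ratios with exact 95% counting intervals (Clopper-Pearson); they cover counting error only, since reads lacking molecular identifiers need not be separate molecules. A count of 0 allows up to 3 counts. Symbols matched 81.9% of identifiers. All members are named; of each other list, the genes called by the 2-fold rule (at most 4), or its most abundant gene, and any others as marked. Exon overlap, lengths and shared windows came from GENCODE release 29 and promoters from RefSeq, both on GRCh38 and matched by gene; no hg19 coordinates are given. The functions were tested on simulated data. The alternatives tried were size factors from DESeq2 1.42.0, total counts, the upper quartile, no minimum or 5 CPM, a pseudocount of 5, and centring along mean expression or transcript length.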

Additional observations from a re-analysis of the deposited data

How the results depend on the processing

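No paired analysis was possible because each group has 1 library, and for the same reason no replicate could be left out. The spread between cultures was not measured. Over the 8 alternatives 0 to 2 fewer members than the 13 were lower by the 1.3-fold rule (11 to 13). Under total counts the members' median log2 ratio was -0.27 and 0 genes of the other lists were lower by the 2-fold rule. Centred along mean expression these were -0.23 and 0, with 7 genes of those lists lower by the 1.3-fold rule. Centred along transcript length the median was again -0.27, 1 member and 1 listed gene being lower by the 2-fold rule. Under upper-quartile scaling 3 listed genes were lower by the 2-fold rule. Over all genes, 8.36% were higher and 5.8% lower by the 1.3-fold rule, and 10.0% and 4.11% under total counts. Of 285 values of single members under alternatives, 53 left their counting interval and 0 of the called ones changed sign. The 285 include the changes of CPM minimum, which cannot move a ratio, so the share that moved is understated. Depth limits GPX2, ABCC2, ABCC3 and the aldo-keto reductases.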

Other observations

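The lists for iron handling, ferroptosis and superoxide production are 3 of the 9 lists counted together above, and their genes are given here. By the 1.3-fold rule, 8.36% of all measured genes were higher and 5.8% lower, which stands beside their counts. Of 9 measured iron genes, 2 were lower by the 1.3-fold rule and 0 higher, with a median log2 ratio of -0.21. These were TFRC, the transferrin receptor, at 246 CPM in lncPSCA and 332 CPM in control, a ratio of 0.740 (0.714 to 0.766), and the RNA-binding protein and iron chaperone gene PCBP2, at a ratio of 0.720 (0.691 to 0.750). Both were named after their values were seen. The most abundant gene of the list, PCBP1, a paralog with the same activities, had a ratio of 0.867 (0.844 to 0.890).

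Of 6 measured genes around ferroptosis, GCH1 was higher by both rules and 0 were lower, with a median of 0.28. GCH1, the first enzyme of tetrahydrobiopterin synthesis, had 347 reads in lncPSCA and 98 in control, 3.18-fold higher (2.53 to 4.02). SLC3A2, the heavy chain that pairs with the cystine carrier SLC7A11, had 999.8 CPM in lncPSCA and 802 CPM in control, a ratio of 1.25 (1.22 to 1.27); it was likewise picked after its values were known.

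Of 12 genes for superoxide production and related enzymes only CYBA and P4HB were measured. CYBA, a subunit shared by several NADPH oxidases, had 3283 reads in lncPSCA and 2818 in control, while the catalytic subunits NOX1, NOX4 and NOX5 had 3, 0 and 6 reads in lncPSCA and 8, 0 and 3 in control. P4HB, the most abundant of the list, had a ratio of 1.03 (1.01 to 1.05). TXNIP, the thioredoxin inhibitor, and NCOA4, the receptor for ferritin autophagy, are listed at 0 in both libraries under the identifiers matched here. Those are current identifiers and may differ from the annotation used in counting, so a 0 need not mean that the transcript was absent.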
